A study of Mus musculus with 8 samples.

Results

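The genes Lrat, Reln, Ngfr, Hand2, Des, Pdgfrb, Acta2, Tagln, Vim and Sparc, which mark hepatic stellate cells or their activation, were followed over the livers of mice given the carcinogen DMBA. They are 10 of the 19321 genes with a symbol on the array, they were chosen by name, and each has 1 probe. Hepatic stellate cells lie between hepatocytes and the sinusoidal endothelium, and in healthy liver they store vitamin A as retinyl esters in lipid droplets. In injured liver they can lose these stores, take on contractile filaments and lay down matrix, which makes them the main source of liver myofibroblasts. Activated stellate cells also form much of the fibroblast compartment of liver tumours.

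Total RNA of whole tissue was hybridised to 8 single-colour (Cy5) oligonucleotide arrays, 1 per tissue sample. The groups were tumour tissue of high fat diet livers (mice 117, 186 and 1), non-tumour tissue of the same 3 livers, and liver of 2 mice on normal diet (mice 117 and 120). Every mouse, controls included, had received DMBA when 4 to 5 days old and was then fed 1 of the diets for 30 weeks, so no group shows liver without carcinogen. The number 117 stands on both diets and cannot be 1 animal. Strain and sex are not given in the sources used here. Levels below are the authors' deposited normalized intensity, a linear scale set so that each array has a median of 25 among its listed values. Levels of different probes cannot be set against each other, and in the summed level of a list the brightest probes weigh most. Differences are log2 fold changes ± SE from limma on the scanner signals, with p-values adjusted by Benjamini-Hochberg over 16800 genes, and a gene rose or fell where its adjusted p was below 0.05. An offset of 50 scanner units added before the log shrinks the log2 changes of dim probes, so ratios of deposited levels are given beside them.

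The deposited table listed 81.8% to 88.5% of the probes per array, and all 10 genes were listed on all 8 arrays. Their spots lay at least 4.14 standard deviations of the blank spots above the blank mean. Hand2 (4.14 to 9.53 blank standard deviations over the arrays), Ngfr (4.51 to 16.4), Des (4.70 to 13.7) and Reln (9.36 to 14.1) were the dimmest against their background. Arrays of the same group correlated at 0.984 to 0.996, and arrays of different groups at 0.919 to 0.983. The scanner headers fit a line between detector gains, and its slopes were 0.464 to 0.465 and 0.232 to 0.235 on the high fat diet arrays, against 0.444 to 0.445 and 0.216 on the normal diet arrays. Scanning and diet therefore cannot be told apart in either comparison with normal diet. The hepatocyte marker Alb was at 45194 to 48628 in tumours, 44980 to 48177 in non-tumour tissue and 52762 to 56458 on normal diet, and the hepatocyte detoxification gene Cyp2e1 was at 1305 to 7218, 24645 to 32306 and 33154 to 34935.

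Promoters are shown for the genes on which the results turn: Lrat, which fell in tumours, Vim and Sparc, which rose together, and Acta2, the contractile marker that varied most between arrays. Each is the 250 bases before the transcription start given by RefSeq (GRCm38.p6), 5′ to 3′ on the gene's strand: Lrat at chr3:82903975-82904224 (minus strand), Acta2 at chr19:34255374-34255623 (minus), Vim at chr2:13574061-13574310 (plus) and Sparc at chr11:55420081-55420330 (minus). Capitals mark matches, on either strand, to a CArG box (the binding motif of serum response factor) with at most 1 other base in its 6-base A/T core, a TATAAA box, a GC box (GGGCGG) or an AP-1 motif (TGANTCA).
Lrat: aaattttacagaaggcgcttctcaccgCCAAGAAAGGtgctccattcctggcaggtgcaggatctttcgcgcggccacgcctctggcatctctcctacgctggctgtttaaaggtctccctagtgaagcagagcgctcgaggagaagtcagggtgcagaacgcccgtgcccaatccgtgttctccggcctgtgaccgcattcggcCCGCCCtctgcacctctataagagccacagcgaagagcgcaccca
Acta2: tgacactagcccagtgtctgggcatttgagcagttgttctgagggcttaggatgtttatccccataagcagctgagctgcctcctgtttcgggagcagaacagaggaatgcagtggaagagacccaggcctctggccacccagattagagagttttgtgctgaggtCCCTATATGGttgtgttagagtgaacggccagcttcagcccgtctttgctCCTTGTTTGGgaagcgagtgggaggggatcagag
Vim: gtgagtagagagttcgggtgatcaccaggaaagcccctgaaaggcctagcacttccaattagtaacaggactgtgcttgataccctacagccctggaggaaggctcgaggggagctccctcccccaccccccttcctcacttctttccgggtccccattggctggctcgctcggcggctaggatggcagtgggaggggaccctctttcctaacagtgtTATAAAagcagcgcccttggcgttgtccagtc
Sparc: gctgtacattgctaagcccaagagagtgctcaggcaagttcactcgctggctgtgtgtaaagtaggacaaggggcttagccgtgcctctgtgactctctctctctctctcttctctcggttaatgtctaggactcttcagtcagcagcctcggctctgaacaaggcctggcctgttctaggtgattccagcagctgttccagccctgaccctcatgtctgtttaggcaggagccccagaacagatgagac
The Acta2 window holds 2 relaxed CArG boxes, at 84 to 75 and 34 to 25 bases upstream, and the Lrat window holds 1, at 223 to 214 bases upstream. The relaxed motif was found in 8.59% of the 32851 promoters of the RefSeq table over the same 250 bases, and the exact CArG box in 1.47% of them and in none of the 8 stellate gene promoters in the table. The Vim window holds a TATAAA box 32 to 27 bases upstream (12.4% of all promoters), and the Lrat window a GC box on the opposite strand 45 to 40 bases upstream (32.7%). The Sparc window holds none of these motifs, and AP-1 (6.75% of all promoters) was in none of the 8. The annotated Acta2 gene reaches position 34255585, inside its window. A match is a stretch of letters and was not tested for binding. The motifs were chosen after the expression values were seen.

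In tumours the stellate identity gene Lrat fell and the mesenchymal genes Vim and Sparc rose relative to non-tumour tissue of the same livers. The other 7 genes did not pass. The 2 rises stand against 12.0% of all tested genes that rose in this comparison, and the 1 fall against 13.4% that fell. The median log2 fold change of the 10 genes was 0.06, against -0.01 over all genes tested.

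Lrat (chr3:82892582-82903974, GRCm38.p6, as for the positions of the other genes) encodes lecithin retinol acyltransferase, the enzyme that esterifies retinol for storage and one of the most selective stellate cell genes of the liver. Its level was 19.1, 24.6 and 19.7 in tumours of mice 117, 186 and 1, against 70, 78.3 and 76.4 in their non-tumour tissue and 64.2 and 46.4 on normal diet. All 3 tumour arrays lay below all 5 others. Tumour tissue held 0.273, 0.314 and 0.258 times the level of the non-tumour tissue of the same liver, so the drop was of similar size in all 3 mice. The log2 fold change was -0.86 ± 0.06 (adjusted p 0.000417), and -1.83 on the deposited values. It was -0.55 ± 0.06 against normal diet (adjusted p 0.00175). In whole tissue, fewer stellate cells and less Lrat RNA per cell cannot be told apart. Lrat was higher in non-tumour high fat diet liver than on normal diet in every array, but did not pass at a log2 fold change of 0.31 ± 0.06 (adjusted p 0.0501). It passed there under 4 of 18 alternatives, in a range of 0.0181 to 0.985.

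**Figure D1:**
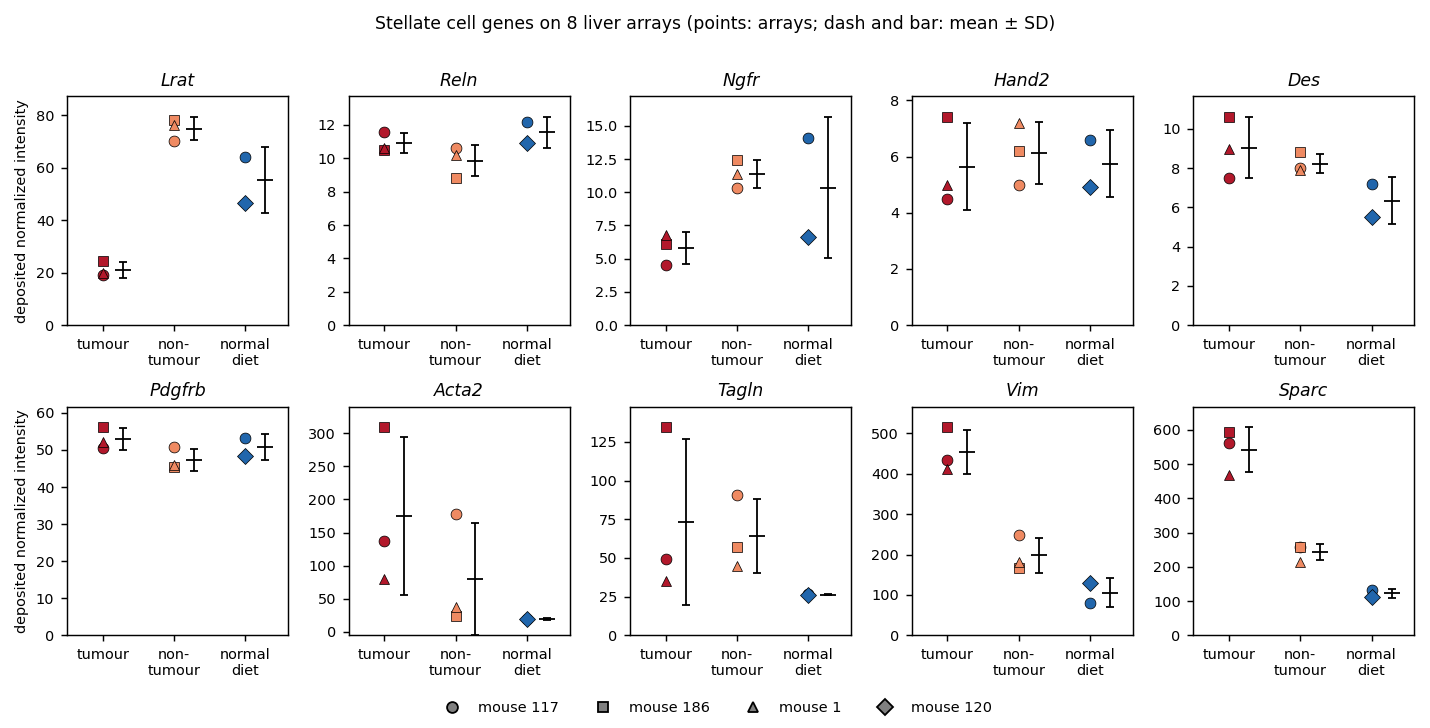
Deposited normalized intensity (y axis, linear) of each of the 10 genes by group (x axis). Points are arrays, shaped by mouse number (117 on normal diet is another animal than 117 on high fat diet), and the dash and bar are the group mean ± SD (n = 3, 3 and 2). Lrat tumours sit at 19.1 to 24.6, below all other arrays, while Vim and Sparc tumours sit above all others and Acta2 and Tagln spread widely.

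Ngfr (chr11:95568818-95587698), the low-affinity neurotrophin receptor (p75), which marks stellate cells in liver, was at 4.5, 6.1 and 6.8 in tumours, 10.3, 12.4 and 11.4 in non-tumour tissue and 14.1 and 6.6 on normal diet. The tumour and non-tumour groups did not overlap, and the within-liver ratios were 0.437, 0.492 and 0.596. In this comparison 22.3% of all tested genes were lower in tumours without overlap, and 19.1% higher. Ngfr did not pass in tumours against non-tumour tissue, with a log2 fold change of -0.16 ± 0.05 (adjusted p 0.0528). It passed under 8 of 19 alternatives, among them the deposited values (-0.99, adjusted p 0.0246), in a range of 0.0150 to 0.832. The 2 normal diet arrays differed from each other by more than the tumour and non-tumour means did.

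Of the remaining identity genes, none changed between any of the groups. Reln (chr5:21884454-22344705), the secreted glycoprotein reelin that stellate cells make, was at 11.6, 10.5 and 10.6 in tumours, 10.6, 8.8 and 10.2 in non-tumour tissue and 12.2 and 10.9 on normal diet. Hand2 (chr8:57320983-57324517), a basic helix-loop-helix transcription factor of mesenchymal development, was at 4.5, 7.4 and 5 in tumours, 5, 6.2 and 7.2 in non-tumour tissue and 6.6 and 4.9 on normal diet. The groups overlapped for both genes, except that Reln was lower in all non-tumour arrays than on normal diet. Their tumour log2 fold changes relative to non-tumour tissue had 95% intervals of -0.05 to 0.10 (Reln) and -0.08 to 0.04 (Hand2), on a scale compressed for such dim probes.

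Des (chr1:75360292-75368579), the muscle-type intermediate filament desmin that rodent stellate cells carry, was at 7.5, 10.6 and 9 in tumours, 8, 8.8 and 7.9 in non-tumour tissue and 7.2 and 5.5 on normal diet. Both high fat diet tissues lay above normal diet without overlap, which in tumours held for 25.5% of all tested genes. The log2 fold change of tumours over normal diet was 0.08 ± 0.03 (adjusted p 0.0656), which passed under 3 of 18 alternatives (range 0.0231 to 0.998). Pdgfrb (chr18:61045127-61085067), the receptor through which platelet-derived growth factor drives stellate cell growth, varied little. It was at 50.4, 56.1 and 52.2 in tumours, 50.8, 45.3 and 46 in non-tumour tissue and 53.2 and 48.3 on normal diet, a span of 1.24-fold over all arrays. Its log2 fold change was 0.10 ± 0.04 in tumours against non-tumour tissue (adjusted p 0.0963, 95% interval 0.01 to 0.18).

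**Figure D2:**
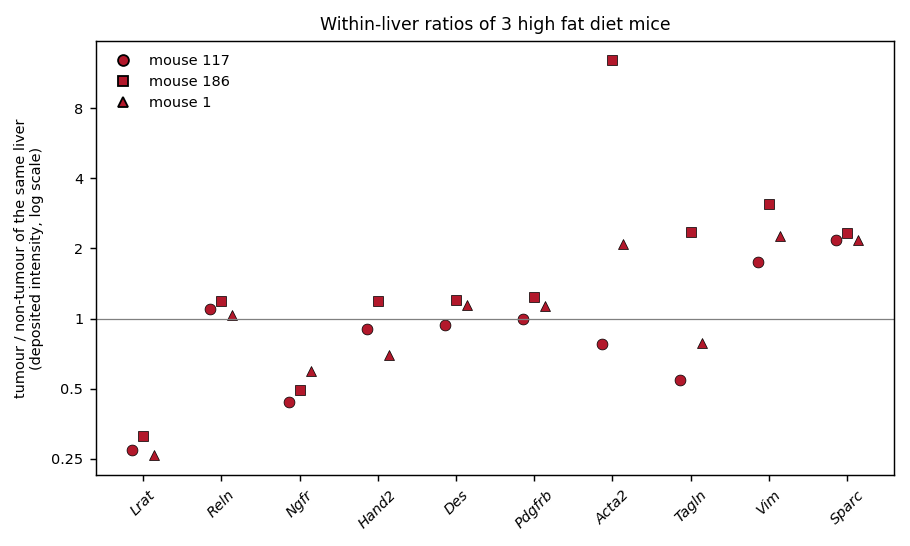
Ratio of the tumour to the non-tumour deposited intensity of the same liver (y axis, log scale) for the 10 genes, 1 point per mouse. Lrat and Ngfr lie below 1 and Vim, Sparc and, by less (1.04 to 1.19), Reln above 1 in all 3 mice, while Acta2 runs between 0.775 and 12.8 and Tagln between 0.546 and 2.36.

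The contractile genes of the activated state varied most within tumours and within non-tumour tissue, and neither changed between tumour and non-tumour tissue. Acta2 (chr19:34240336-34255585) encodes alpha smooth muscle actin, the usual marker of stellate cell activation. It was at 138, 309.6 and 79.6 in tumours of mice 117, 186 and 1, against 178, 24.1 and 38 in their non-tumour tissue and 18.6 and 19.7 on normal diet. Every high fat diet array lay above both normal diet arrays, but tumour and non-tumour arrays overlapped because non-tumour tissue of mouse 117 was high. Within the livers the ratio was 0.775, 12.8 and 2.09, so tumour was lower than non-tumour tissue in mouse 117 and higher in the other two. The log2 fold change of tumours over non-tumour tissue was 0.99 ± 0.56 (adjusted p 0.262), and 1.51 without non-tumour array 117 (adjusted p 0.0832). Against normal diet it was 1.76 ± 0.63 in tumours (adjusted p 0.0828), which passed under 4 of 18 alternatives (range 0.0158 to 0.259). These include the deposited values (2.97, adjusted p 0.0158) and the fit without non-tumour array 117 (adjusted p 0.0462). For non-tumour tissue against normal diet it was 0.77 ± 0.63 (adjusted p 0.569), and 0.25 without non-tumour array 117 (adjusted p 0.865).

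Tagln (chr9:45929628-45936058), which encodes the actin-binding protein transgelin (SM22 alpha), was highest on the same 2 arrays as Acta2. These were the tumour of mouse 186 and non-tumour tissue of mouse 117. The tumour of mouse 117, the next highest for Acta2, held less Tagln than non-tumour tissue of mouse 186. Tagln was at 49.6, 134 and 35.3 in tumours, 90.9, 56.9 and 44.9 in non-tumour tissue and 26.7 and 25.9 on normal diet. Within livers the ratio was 0.546, 2.36 and 0.786. The log2 fold change of tumours over non-tumour tissue was 0.09 ± 0.32 (adjusted p 0.880), and its sign turned without tumour array 186 (-0.27, adjusted p 0.399) or non-tumour array 1 (-0.05, adjusted p 0.952). All high fat diet arrays were above normal diet, with log2 fold changes of 0.70 ± 0.36 in tumours (adjusted p 0.203) and 0.61 ± 0.36 in non-tumour tissue (adjusted p 0.415).

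Markers of other contractile cells and fibroblasts differed in which arrays were high. The smooth muscle calponin gene Cnn1 was at 15.1 in non-tumour tissue of mouse 117, against 3.9 in the tumour of mouse 186 and 2.1 to 2.9 on the other arrays. The smooth muscle myosin gene Myh11 was at 10.7 on that array and 9.4 in the tumour of mouse 186, against 3.5 to 4.9 on the others. These 2 genes were singled out after their values were seen. The smooth muscle actin gene Actg2 was at 29.8, 48.8 and 28.7 in tumours, against 31.2, 11.9 and 8.9 in non-tumour tissue, also highest on these 2 arrays, while Smtn and Lmod1 were not. The smoothelin gene Smtn was at 11.2, 20.1 and 21.3 in tumours, against 9.8, 7.5 and 8.4 in non-tumour tissue, and the leiomodin gene Lmod1 at 8.2, 11.7 and 12.5 in tumours, against 9.1, 8 and 11.5. The summed level of the 8 smooth muscle markers on the array was 85.8 to 129.8 in tumours, 63.3 to 109.9 in non-tumour tissue and 63.6 to 69.8 on normal diet, and Myocd, the smooth muscle coactivator, had no value on 5 arrays. The portal fibroblast and matrix gene Dpt was at 47.8, 52 and 28.2 in tumours, against 145, 64.7 and 54.9 in non-tumour tissue, so it was high in non-tumour tissue of mouse 117 but not in the tumour of mouse 186. Of 11 portal fibroblast markers 2 rose in tumours, the ectonucleotidase gene Entpd2 and the sialomucin gene Cd34, and none fell. The median log2 fold change of the 11 was -0.04, against -0.01 over all genes tested. The counts of the portal fibroblast list and the 2 muscle lists stand beside 12.0% of all tested genes that rose and 13.4% that fell. Portal fibroblast sums were 539, 503 and 564 in tumours of mice 117, 186 and 1, against 584, 452 and 470.3 in their non-tumour tissue and 365 and 352 on normal diet, so the tumour of mouse 186 was the lowest of the tumours. Of 7 tested smooth muscle markers 1 rose, Smtn, and none fell. Smtn did not pass with mouse as a block, with the lowest probe per gene or with the local background of each spot. Nor did it pass without the tumour or non-tumour array of mouse 186 or mouse 1. Without non-tumour array 117, 2 of the 7 rose. Of 7 tested striated muscle markers 1 fell, the myosin light chain gene Myl1, and the sums were 30.3 to 44 in tumours, 36.6 to 43.9 in non-tumour tissue and 46.9 to 47.5 on normal diet. The part of these cells in the Acta2 and Tagln levels was not tested.

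Vim and Sparc rose in tumours in every mouse. Vim (chr2:13574311-13582826) encodes vimentin, the intermediate filament of mesenchymal cells, leukocytes and endothelium. It was at 433, 515 and 412 in tumours, 248, 166 and 181 in non-tumour tissue and 80.6 and 131 on normal diet. The groups did not overlap, and the within-liver ratios were 1.75, 3.10 and 2.27. The log2 fold change was 1.22 ± 0.18 against non-tumour tissue (adjusted p 0.00494) and 1.99 ± 0.21 against normal diet (adjusted p 0.00129). Non-tumour high fat diet liver lay above normal diet without overlap, but at 0.77 ± 0.21 it did not pass (adjusted p 0.101).

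Sparc (chr11:55394159-55420080) encodes osteonectin, a collagen-binding matrix glycoprotein made by stellate cells, endothelium and fibroblasts. Its level was 562, 595 and 469 in tumours, 258, 257 and 215 in non-tumour tissue and 132 and 113 on normal diet. The 3 groups formed an order with no overlap, normal diet lowest and tumours highest. Within the livers the tumour held 2.18, 2.32 and 2.18 times the non-tumour level, the narrowest spread among the genes that moved. The log2 fold change was 1.24 ± 0.14 against non-tumour tissue (adjusted p 0.00175) and 2.1 ± 0.16 against normal diet (adjusted p 0.000441).

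Sparc was also the 1 gene of the 10 that rose in non-tumour high fat diet liver against normal diet, by 0.86 ± 0.16 (adjusted p 0.0393), where 1.81% of all tested genes rose and 2.02% fell. That call ended when a normal diet array was left out (117, adjusted p 0.171, or 120, adjusted p 0.206), or a non-tumour array (117, 0.105, 186, 0.106, or 1, 0.0529). It also ended on leaving out the tumour of mouse 117 (0.0658), with no filter (0.0516) and when each spot was corrected by its local background (0.999). On the log2 scale 6 of the 10 genes lay above normal diet on all non-tumour arrays (Lrat, Des, Acta2, Tagln, Vim and Sparc) and Reln lay below, where groups failed to overlap in 21.0% and 23.0% of all tested genes. In tumours against normal diet, Vim and Sparc rose and Lrat fell, with 12.9% of all tested genes higher and 15.0% lower. Without regard to the test, Des, Pdgfrb, Acta2, Tagln, Vim and Sparc lay above normal diet on all tumour arrays on the log2 scale and Lrat below, against 25.5% and 31.8% of all tested genes. The 3 comparisons share arrays and are not independent of each other.

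**Figure D3:**
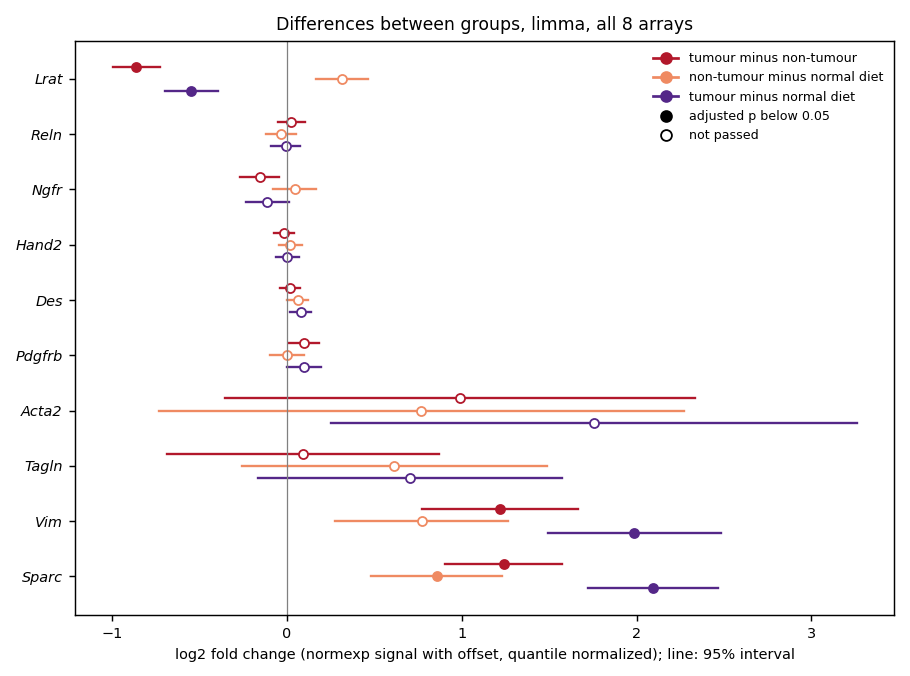
Log2 fold changes (x axis) of the 10 genes in 3 comparisons, from limma on 8 arrays. Lines are 95% intervals and filled points passed at an adjusted p below 0.05. Lrat lies left of 0 and Vim and Sparc right of 0 in tumours, and the Acta2 and Tagln intervals are the widest.

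Likeness of profile was measured as the root mean square difference of mean-centred log2 values over the 8 arrays, among 15338 other genes listed on every array, for genes that spanned more than 1 log2 unit. Vim and Sparc were each other's nearest gene, at 0.20 log2 units. The next nearest to Vim were the cyclin D1 gene Ccnd1 and the RNA-binding protein gene Bicc1, both at 0.23. For Sparc they were the LIM homeobox gene Lhx6 (0.20) and the membrane protein gene Tmem176b (0.22). Tagln lay nearest to Prelp (0.14), a small leucine-rich proteoglycan gene, and Fbln5 (0.16), which encodes the elastic fibre protein fibulin 5, with Rb1 at 0.20. Acta2 had no near neighbour, the closest being the type I collagen gene Col1a2 (0.45), Vim (0.48) and Bicc1 (0.485). Prelp was at 161 in the tumour of mouse 186 and 107 in non-tumour tissue of mouse 117, and between 60.2 and 79.6 elsewhere. No p-values were computed for likeness.

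Genes related to the 10 were read in lists, beside the shares of all tested genes. In tumours 12.0% of all tested genes rose and 13.4% fell against non-tumour tissue, and 12.9% and 15.0% against normal diet. For non-tumour tissue against normal diet 1.81% rose and 2.02% fell. Among 19 tested other stellate identity genes, 8 fell and 1 rose in tumours against non-tumour tissue, with a median log2 fold change of -0.22, against -0.01 over all genes. Ecm1, an extracellular matrix protein that restrains TGF beta activation, was at 136, 196 and 139.9 in tumours, against 314, 271 and 367 in non-tumour tissue (-0.73 ± 0.13). Pth1r, the parathyroid hormone receptor, was at 29.3, 41.2 and 32, against 80.9, 62.2 and 100.2 (-0.65 ± 0.09). The collectin gene Colec10 was at 24.3, 41.3 and 23.3, against 69.1, 72.6 and 66.6 (-0.62 ± 0.14). Lhx2, a LIM homeobox factor that keeps mouse stellate cells quiescent, was at 14.4, 18.7 and 9.4, against 30.1, 30.6 and 30.5 (-0.36 ± 0.05). The tumour and non-tumour groups did not overlap for any of these 4, where 22.3% of all tested genes were lower in tumours without overlap. The 4 were named because they passed the test on the same arrays, so the lack of overlap is no separate result. Steap4, a metalloreductase gene, rose (241, 401 and 339, against 156, 234 and 170.2, 0.83 ± 0.20). Dcn, the proteoglycan decorin, was at 536, 643 and 475 in tumours, against 1345, 1010.1 and 919 in non-tumour tissue, and did not pass (-0.66 ± 0.20, adjusted p 0.0544). The transcription factor gene Tcf21 did not pass either, at 28.6, 61.6 and 22.2 in tumours, against 38.7, 61.4 and 58.9 in non-tumour tissue (-0.26 ± 0.18, adjusted p 0.368). Gfap, an astrocyte filament that also marks stellate cells, was at 1.3 to 3.7 where listed and had no value on 2 arrays. Without tumour array 1 the counts were 5 lower and 0 higher. Against normal diet 5 of the 19 fell and 2 rose in tumours, and 2 and 1 without normal diet array 117 or 120. None changed between non-tumour tissue and normal diet in the main fit. With scaling to the same median 3 rose there. With the blank mean subtracted, on the deposited values or with trend and robust moderation 1 rose. The compared groups alone and the fit without tumour array 1 also gave 1 rise each.

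Of 19 tested retinoid genes, the pathway in which Lrat acts, 6 were lower and 2 higher in tumours than in non-tumour tissue. Among all tested genes 13.4% were lower and 12.0% higher. Aldh1a1, which makes retinoic acid and is strong in hepatocytes, was at 3482, 3227 and 2259.8 in tumours, against 12096, 11592 and 9508 in non-tumour tissue (-1.56 ± 0.22). Aldh1a2, the retinaldehyde dehydrogenase of mesenchyme, was at 69.7, 93.9 and 66.1, against 128, 111 and 139 (-0.44 ± 0.09). The retinol dehydrogenase gene Rdh10 was at 50.8, 55.8 and 63.7, against 93.2, 90.3 and 104 (-0.44 ± 0.04). Bco1, which cleaves beta-carotene, rose, at 263, 276 and 381 in tumours, against 41.3, 42.4 and 30.6 in non-tumour tissue (2.20 ± 0.11). With mouse as a block 3 fell and 1 rose, and 4 fell and 1 rose when non-tumour array 117, non-tumour array 1 or the tumour array of mouse 1 was left out. Between non-tumour tissue and normal diet 1 retinoid gene was called, the retinoic acid hydroxylase gene Cyp26a1, which was lower. It was at 23.2, 20.9 and 38.9 in non-tumour tissue, against 319.5 and 300.1 on normal diet (-2.11 ± 0.09). Scanning and diet cannot be told apart in this comparison, where 1.81% of all tested genes rose and 2.02% fell. Scaling to the same median gave 1 rise and 1 fall in the retinoid list, and the local background setting left 0 calls.

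Of 19 tested contractile and serum response factor genes, 5 were higher and 2 lower in tumours than in non-tumour tissue. Among all tested genes 12.0% were higher and 13.4% lower. The non-muscle transgelin gene Tagln2 was at 390, 423 and 506 in tumours, against 163, 139 and 124 in non-tumour tissue (1.54 ± 0.11), and the tropomyosin gene Tpm1 at 908, 777 and 1201, against 477, 393 and 379 (1.39 ± 0.12). Both also rose in non-tumour tissue against normal diet, where they were at 61.9 and 78.8 (Tagln2) and 244 and 221 (Tpm1), but no contractile gene was called higher there without either normal diet array or without non-tumour array 117 or 186. Tpm2, the tropomyosin of smooth and slow muscle, fell in tumours to 30.3, 51.3 and 23.2, against 100, 78.4 and 88 in non-tumour tissue (-0.74 ± 0.12), as did Synpo2, an actin-binding protein gene. Against normal diet 9 of 19 rose in tumours and 1 fell, beside 12.9% and 15.0% of all tested genes. Without normal diet array 117 or 120, 2 or 3 rose there and none fell. Between tumour and non-tumour tissue 2 rose and 2 fell when non-tumour array 186, non-tumour array 1 or the tumour array of mouse 1 was left out.

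**Figure D4:**
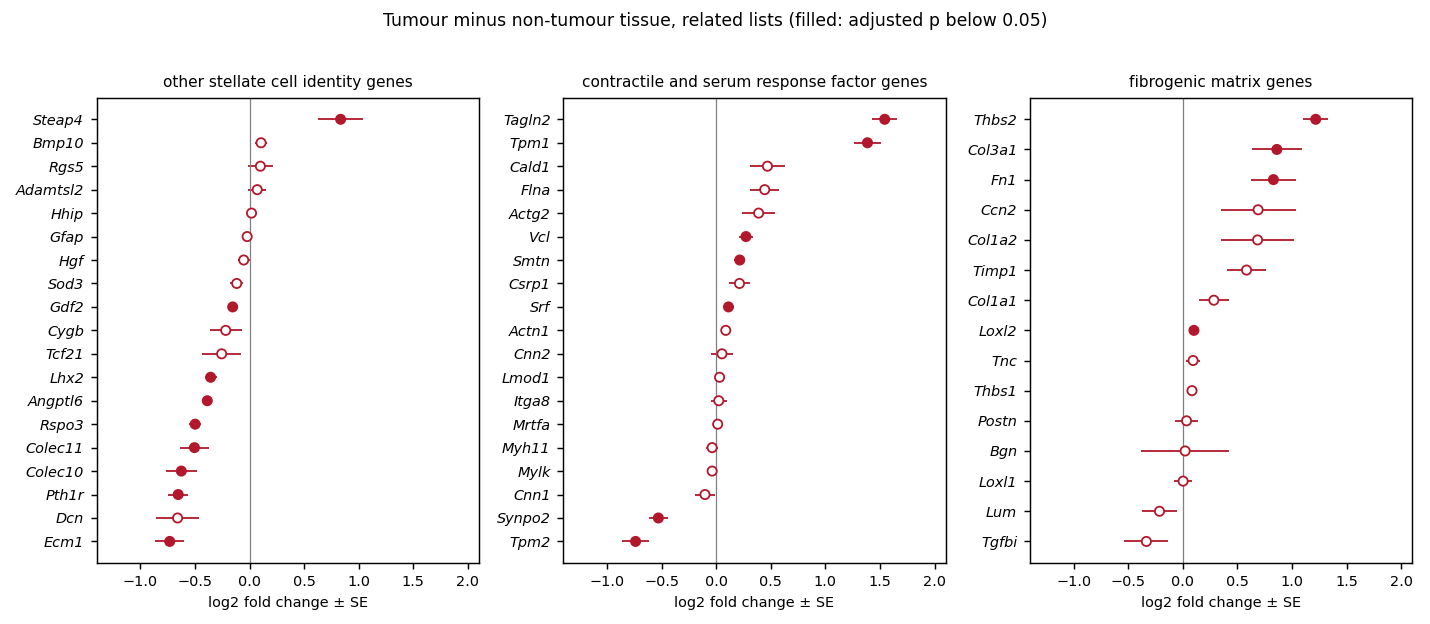
Log2 fold change ± SE (x axis) of tumours against non-tumour tissue for the tested genes of 3 lists, sorted within each list. Filled points passed at an adjusted p below 0.05. Most stellate identity genes lie left of 0, with Steap4 to the right, while Tagln2, Tpm1 and Thbs2 lead the other 2 lists.

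Of 15 tested fibrogenic matrix genes, 4 were higher in tumours than in non-tumour tissue and none lower. Among all tested genes 12.0% were higher and 13.4% lower. The thrombospondin gene Thbs2 was at 177, 223 and 280.5 in tumours, against 68.2, 82.1 and 90.1 in non-tumour tissue (1.22 ± 0.11), and the type III collagen gene Col3a1 at 602, 676 and 440.5, against 397, 369.9 and 294 (0.86 ± 0.23). Col3a1 was at 85.5 and 126 on normal diet and also rose in non-tumour tissue (1.46 ± 0.26), as did the proteoglycan gene Lum (0.90 ± 0.18). Neither was called there without any 1 of the normal diet or non-tumour arrays. Of all tested genes 1.81% rose in that comparison. The 2 fibrogenic genes called there became 4 with the blank mean subtracted, 5 on the deposited values and 6 with the compared groups alone. The count was 1 with no filter. It was 0 with the lowest probe per gene, with the local background of each spot and without tumour array 117. Ccn2, the connective tissue growth factor gene, was at 33, 144 and 50.2 in tumours, against 19.7, 42.8 and 19.2 in non-tumour tissue, and did not pass (0.69 ± 0.34, adjusted p 0.203). The 4 rises between tumour and non-tumour tissue became 1 with scaling to the same median, with the compared groups alone and without either normal diet array or tumour array 117, and 2 when non-tumour array 117, non-tumour array 1 or the tumour array of mouse 186 was left out. Against normal diet 7 of 15 rose in tumours and none fell, beside 12.9% and 15.0% of all tested genes. The rises were 3 without either normal diet array.

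Ligands that act on stellate cells were read with their receptors. In tumours against non-tumour tissue 12.0% of all tested genes rose and 13.4% fell. Of 6 genes for platelet-derived growth factors, the alpha receptor and a receptor-like protein, none rose in tumours against non-tumour tissue and 1 fell, the ligand gene Pdgfc (16.2, 16 and 14.8, against 28.4, 24 and 29, -0.25 ± 0.04). The ligand gene Pdgfa was at 33.1, 34.1 and 63.6 in tumours, against 26.6, 23.8 and 32.6 in non-tumour tissue, higher in all 3 livers, and did not pass (0.28 ± 0.13, adjusted p 0.171). Pdgfra was at 21.4, 29.4 and 13.2, against 33.3, 31.7 and 17.7, and did not pass (-0.14 ± 0.12, adjusted p 0.495). Of 18 TGF beta ligands, receptors and SMADs 7 rose and 1 fell, the latent TGF beta binding protein gene Ltbp1, which is named here after its values were seen. Inhba, an activin subunit gene, was at 50, 127 and 131 in tumours, against 21.5, 27.5 and 29 in non-tumour tissue (1.06 ± 0.23), and the receptor gene Tgfbr2 at 278, 225 and 261, against 161, 141 and 96.9 (0.89 ± 0.18). Against normal diet 2 of the 18 rose in tumours and 1 fell, beside 12.9% and 15.0% of all tested genes. The summed level of this list was 827 to 1007 in tumours, 611.5 to 670 in non-tumour tissue and 788 to 832 on normal diet. With mouse as a block 4 of the 18 rose and 1 fell in tumours against non-tumour tissue. Leaving out any 1 array except tumour array 186 gave 3 or 4 rises.

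Partners of Ngfr, Reln, Vim, Des, Sparc and Hand2 were read in lists as well. In tumours against non-tumour tissue 12.0% of all tested genes rose and 13.4% fell. Of 7 tested neurotrophin and reelin partners 1 rose in tumours against non-tumour tissue, the reelin adaptor gene Dab1, and none fell. Dab1 was listed at 4, 6.1 and 4.7 in tumours and had no value in non-tumour tissue, so it entered the test through the tumours alone, and the list had 0 calls with genes listed on all 8 arrays and on the deposited values. The reelin and lipoprotein receptor gene Vldlr rose in non-tumour tissue against normal diet (62, 49.5 and 68.8, against 20.5 and 13.3, 0.78 ± 0.15), a call that ended without any 1 of the normal diet or non-tumour arrays. Of 6 other intermediate filament genes 1 fell in tumours, the peripherin gene Prph, which did not pass with mouse as a block or without any 1 array except non-tumour array 117 and tumour array 186. Of 6 Sparc family genes none changed against non-tumour tissue (Fstl1 adjusted p 0.0549), and Fstl1, a follistatin-like glycoprotein gene, rose against normal diet (110.4, 172 and 85.6, against 29.8 and 38.1, 1.15 ± 0.22), a call that ended without normal diet array 117. Of 8 mesenchymal transcription factor genes Lhx2 alone changed between tumour and non-tumour tissue. Against normal diet 1 of these 8 rose in tumours and 2 fell. Of the 7 neurotrophin and reelin partners 1 rose and 1 fell there. The shares of all tested genes in that comparison were 12.9% and 15.0%.

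Other cell types that carry Vim or Sparc gave mixed values. Their counts stand beside 12.0% of all tested genes that rose in tumours against non-tumour tissue and 13.4% that fell. Of 9 tested endothelial markers 1 rose in tumours, Pecam1, and none fell. The list's median log2 fold change was 0.08, against -0.01 over all genes tested. Cdh5 had no value on 4 arrays. The summed level was 586 to 902 in tumours, 882 to 940.1 in non-tumour tissue and 904 to 1158 on normal diet. Of 5 leukocyte markers 1 rose, Itgam (3.5, 4.8 and 3.6, against 1.8, 1.5 and 1.8), which did not pass with mouse as a block or without any 1 array. Its non-tumour levels were near the floor, where 1 blank standard deviation was 0.81 to 0.95 units of the same scale. The list also had 0 calls with scaling to the same median, the compared groups alone or the local background of each spot. With genes listed on all 8 arrays and on the deposited values, which tested 3 of the markers, it had 0 calls too. The T cell marker Cd3e had no value on 4 arrays, and leukocyte sums were 203 to 208 in tumours, 174 to 244 in non-tumour tissue and 124 to 140.5 on normal diet. Of 7 macrophage markers 3 fell (Clec4f, Vsig4 and Cd5l) and none rose, with sums of 501 to 694 in tumours, 1279.5 to 1487 in non-tumour tissue and 976 to 1463 on normal diet. Of 7 mesothelial markers 1 rose, Msln, at 454, 539 and 599.7 in tumours, against 128, 145 and 147 in non-tumour tissue, and the list's median log2 fold change was -0.09. Mesothelial sums, to which Msln gave the most, were 547 to 656 in tumours, 211 to 280.2 in non-tumour tissue and 252 to 310.2 on normal diet, and Lrrn4 had a value on 1 array. Of 5 cholangiocyte markers Cftr fell and none rose, and of 6 hepatocyte markers 2 rose and 2 fell (2 and 0 with mouse as a block). The part of these cells in the Lrat, Vim and Sparc results was not tested.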

How the data were processed

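The scanner files hold spot and local background intensity per the file headers, and the authors' deposited table holds normalized intensity with dim probes left empty. Recomputed here, the deposited value is the spot median minus the mean of 2736 blank spots, divided by 1 factor per array (r2 = 1). Precision is limited by 2 or 3 arrays per group, each from 1 tissue sample. Of 23473 probes 20690 had 1 gene symbol, 2783 had none and 0 had several. One probe per gene was kept, by the highest mean deposited value. Tested genes (16800 of 19321) had a deposited value throughout 1 group or more. Signals were corrected by normexp against the blank spots (offset 50), quantile normalized and fitted with limma 3.58.1 (R 4.3.3) as group means over 8 arrays, 2-sided, with 5 residual and 1.49 prior degrees of freedom. The fit was tested on simulated data.

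Each numbered high fat diet mouse gave both a tumour and a non-tumour array, per the labels. Their deviations from group means correlated at 0.442, 0.148 and 0.167, against -0.274 to 0.0280 for different mice. Deviations cancel within a group, so the values of the same mouse and of different mice are not independent. The 10 genes, the 19 lists and the alternatives were chosen with earlier results of these data known. Named genes are the 10, up to 4 members per list and comparison that passed and up to 2 that did not, by size of change, and the 3 nearest profiles, apart from genes the text says were singled out, Gfap, Lmod1 and Alb, and markers named for having no value. Of 211 list names 199 were on the array. Promoter motifs were searched with Python 3.11.15.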

Additional observations from a re-analysis of the deposited data

How the results depend on the processing

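Of 550 values of the 10 genes under alternatives, 512 kept their side of the threshold, 14 lost a call, 24 gained one and 0 called values reversed. Lrat, Vim and Sparc kept their calls in both tumour comparisons under every alternative except the local background of each spot, which followed the spot signal itself (rank correlation 0.902 to 0.960). With it 0 of the 10 genes were called in each comparison, and 129, 4 and 223 of all genes (tumour against non-tumour, non-tumour against normal diet, tumour against normal diet), against 4268, 644 and 4679 otherwise; the cause was not tested. Between non-tumour tissue and normal diet, where 1 of the 10 was called, 2 were called with offset 16 and with genes listed on all 8 arrays, 3 with scaling to the same median and with trend and robust moderation, and 0 with no filter, which tests more genes. In tumours against normal diet, where 3 were called, 5 were with the blank mean subtracted and with scaling to the same median. Leaving out 1 array gave 3 to 4 calls in tumours against non-tumour tissue, 0 to 1 in non-tumour tissue against normal diet and 3 to 4 in tumours against normal diet. Mouse as a block (replicate block) left the 3 calls among the 10 in tumours against non-tumour tissue (Lrat adjusted p 0.00740, Vim 0.0210, Sparc 0.00759) and changed no call of the other 7; its effect on lists stands beside them where it passed 1.5 times. Of all genes called, 47.1% were higher in tumours against non-tumour tissue, against 37.3% with scaling to the same median; the shares were 47.2% and 77.3% (1403 genes) for non-tumour tissue against normal diet, and 46.2% and 30.7% (deposited values) for tumours against normal diet. On the deposited values the median of all genes shifted by -0.12 and -0.20 log2 units in the comparisons of non-tumour tissue and tumours with normal diet. Without normal diet array 117 or 120, 129 and 95 of all genes were called between non-tumour tissue and normal diet, and 2316 and 2479 between tumours and normal diet; without non-tumour array 117, 186 or 1 256, 257 and 372 were called between non-tumour tissue and normal diet. Of 1045 list counts under alternatives 774 stayed within 1.5 times. With the local background the identity, fibrogenic and retinoid lists had 0 calls between tumour and non-tumour tissue, and the contractile and TGF beta lists 1 each. Folds of Hand2, Des, Ngfr and Reln are limited most by their low signal over the blank spots.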
